A study of Mus musculus with 18 samples.

Results

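The 10 genes described here carry the canonical Wnt signal at its entry and exit points. They are Lgr4, Lgr5 and Lgr6, the receptors for R-spondins, and Tcf7, Tcf7l1, Tcf7l2 and Lef1, the TCF/LEF family of DNA-binding factors. Bcl9 and Bcl9l are co-activators of beta-catenin, and Sp5 is a transcription factor induced by Wnt signals. They were chosen by name for their place in the pathway, with earlier results of these data known. All 10 were found among the 52636 gene identifiers of the deposited tables. In canonical Wnt signalling a Wnt ligand joins a Frizzled receptor to an LRP co-receptor, beta-catenin escapes degradation and enters the nucleus, and there it binds TCF/LEF factors on target genes. R-spondins bound to an LGR protein remove the ubiquitin ligases RNF43 and ZNRF3, which otherwise clear Frizzled from the cell surface, so LGR proteins tune how strongly a cell answers Wnt. In the lung, Wnt signals maintain alveolar type 2 cells, which make surfactant, and restrain their conversion into the flat alveolar type 1 cells of the gas exchange surface.

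RNA was sequenced from mouse lung cells in culture that the labels call alveolar type 2, in 6 groups of 3 libraries each. Every group, ligand and withdrawal groups included, carried LGK974, an inhibitor of porcupine, the enzyme without which cells cannot export their own Wnts. The culture ran for 19 days in CHIR99201 (CHIR below, spelled as in the labels), which the series describes as an agonist of Wnt signalling. In the WNT, FZD5 agonist and FZD6 agonist groups CHIR was taken away and exchanged for Wnt, for a Fzd5 agonist or for a Fzd6 agonist, both named after Frizzled receptors, with treatments of 8 to 12 h. The CHIR group stayed with CHIR, and the withdrawal groups were left without it for 24 h or 48 h. The labels state no dose, Wnt protein, mouse strain or age, and no time that the ligand groups spent without CHIR, so the ligand groups are set beside both withdrawal times. Nothing in the labels tells whether replicate libraries are separate cultures or mice, and the p-values below cover only library-to-library spread, which may be technical.

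Total gene counts ran from 31509607 to 52030066 per library, and 3 counts corresponded to 0.0589 to 0.106 CPM, a gene's count divided by library size after scaling between libraries. Alveolar type 2 markers were present in every library, with 67303 to 166242 CPM summed over 10 genes, and 9 alveolar type 1 markers summed to 4224 to 10235 CPM, with no read of Cav1 or Rtkn2 in 24 h withdrawal 2. Markers of fibroblasts and smooth muscle (8 genes) summed to at most 0.861 CPM and those of endothelium (5 genes) to at most 0.143 CPM. Within groups no pair of libraries agreed within sampling noise. Of the 18 libraries, 4 stood apart, and in 3 of them the airway genes Scgb1a1, Scgb3a1, Bpifa1 and Reg3g lay above all other libraries: the median correlation with all other libraries was 0.782 to 0.950 for CHIR 1, CHIR 3, FZD6 agonist 1 and 24 h withdrawal 2, and 0.966 to 0.982 for the remaining 14. Each comparison is therefore given over all 18 libraries and over those 14. The 14 hold a single CHIR library, CHIR 2, so every 14-library comparison with CHIR is a comparison with CHIR 2, assumed to vary like the other groups. The WNT, FZD5 agonist and 48 h withdrawal groups hold none of the 4 and keep all 3 libraries in either case. In bulk RNA fewer cells of a type and less RNA per cell cannot be told apart.

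TCF/LEF factors bind DNA, and several members are known Wnt targets, so the promoters of the members were searched for the TCF/LEF motif. RefSeq promoter sequences (GRCm38.p6, 250 bases before to 50 after a start site) matched 8 of the 10 members; Lgr5 and Bcl9l were not matched. The search on both strands covered CTTTGAT along with the variant CTTTGTT, the variant CTTTGAA and the variant CTTTGTA. It also covered the core CTTTG that they share and overlap, which was added after the data were seen. Shown are the promoter of Sp5, which held the most core motifs of the members, and the window at start 1 of Tcf7, which held none. The Tcf7 window has an ATG ahead of its start site, with no stop codon in that frame up to its end. It may therefore be coding sequence and not the promoter of the full-length gene. Capitals mark each motif match, with CAAAG for the core on the other strand.
Sp5 (chr2:70474673-70474972, GRCm38.p6, plus strand): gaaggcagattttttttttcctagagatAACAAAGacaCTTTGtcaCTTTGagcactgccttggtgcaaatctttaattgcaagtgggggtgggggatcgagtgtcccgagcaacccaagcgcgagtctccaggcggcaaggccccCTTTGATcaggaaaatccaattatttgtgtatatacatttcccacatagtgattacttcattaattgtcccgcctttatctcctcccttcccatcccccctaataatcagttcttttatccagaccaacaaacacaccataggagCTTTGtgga
Tcf7 (chr11:52282965-52283264, GRCm38.p6, minus strand): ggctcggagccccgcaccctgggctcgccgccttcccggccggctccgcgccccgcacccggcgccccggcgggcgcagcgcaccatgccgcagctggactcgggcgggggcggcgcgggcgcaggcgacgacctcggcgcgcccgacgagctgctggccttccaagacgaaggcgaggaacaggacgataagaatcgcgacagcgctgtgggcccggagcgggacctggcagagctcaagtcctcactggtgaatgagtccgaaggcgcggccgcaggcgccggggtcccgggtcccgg
The Sp5 promoter held the core 5 times, at positions -220, -212, -204, -104 and 42 from the start site, and 2 of these lay within a longer motif, CTTTGAT at -104 and CTTTGTT on the other strand at -222. At least 5 core motifs were found in 0.286% of 32851 mouse promoters of the same length, at least 1 in 53.9%, and any of the 4 longer motifs in 16.9%. CTTTGAT alone was in 3.73% of them and CTTTGTT in 5.85%. Neither start of Tcf7 held the core, and neither did the promoters of Lgr4, Lgr6 and Bcl9. Tcf7l1 held it 1 time and Tcf7l2 1 time at each of 2 starts, with CTTTGTT at -14 of start 2. Lef1, with 4 starts, held it 2, 2, 1 and 3 times, with CTTTGTA on the other strand at -147 of start 4. A match is a description of the letters in this window and not a binding site. A window without a match does not show that the gene's promoter lacks the motif.

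**Figure D1:**
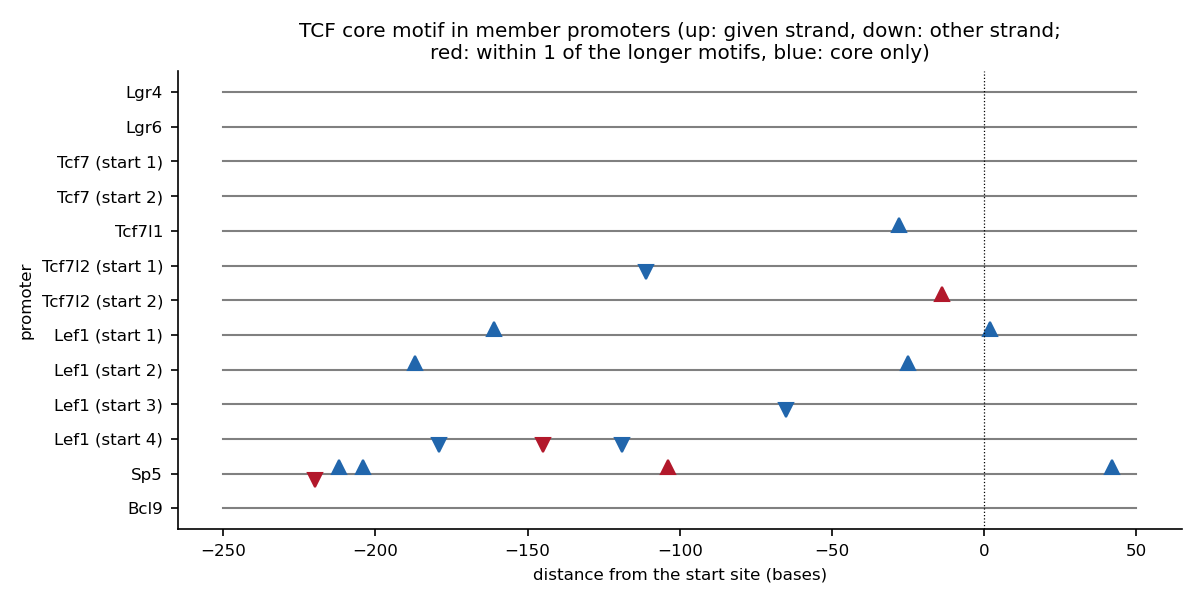
Core TCF/LEF motif CTTTG in the promoters of 8 members, 1 line per start site, against the distance from the start site in bases. Triangles above a line are on the gene's strand and those below on the other strand, red ones lie within a longer motif, and Sp5 holds 5 matches while Lgr4, Lgr6, Bcl9 and both starts of Tcf7 hold 0.

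Per length, Sp5 and Tcf7l1 were the most abundant of the 10 genes and Lgr6 and Lef1 were close to or at 0. The deposited RPKM (reads scaled by gene width and library size) had medians over 18 libraries of 32.0 for Sp5 and 23.1 for Tcf7l1. Bcl9l followed at 3.36, Tcf7l2 at 2.59, Bcl9 at 0.925, Tcf7 at 0.509, Lgr4 at 0.504, Lgr5 at 0.166, Lgr6 at 0.00469 and Lef1 at 0 RPKM. Some neighbours in this order overlapped over the 14 libraries and others did not. Bcl9l ran from 2.64 to 4.64 RPKM and Tcf7l2 from 2.35 to 3.44 RPKM, and Tcf7, at 0.143 to 2.99 RPKM, covered the whole range of Lgr4, 0.378 to 0.841 RPKM. Sp5, at 28.0 to 54.6 RPKM, and Tcf7l1, at 16.0 to 28.4 RPKM, barely met. Tcf7l1 lay wholly above Bcl9l, and Tcf7l2 wholly above Bcl9, which ran from 0.714 to 1.19 RPKM.

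**Figure D2:**
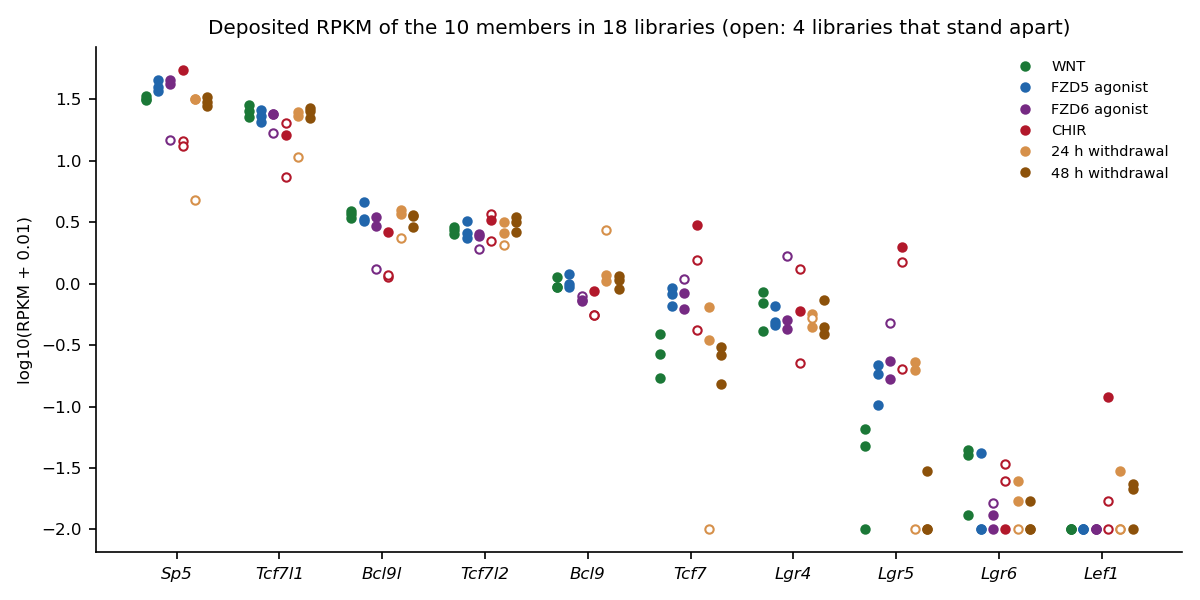
Deposited RPKM of the 10 genes on a log10 scale after adding 0.01, 1 point per library and 1 colour per group, genes in order of their median over 18 libraries. Open points are the 4 libraries that stood apart, and points at the bottom, at -2 on this scale, are libraries in which a gene was listed at 0.

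Among the R-spondin receptors, Lgr5 was the one that separated the groups. Lgr5, a receptor of intestinal and other stem cells that is also a Wnt target (chromosome 10, 115450311 to 115587780, minus strand; positions of genes are from GENCODE M21 on GRCm38), had 0, 0.216 and 0.310 CPM in WNT libraries 1 to 3 and 0.491, 1.13 and 0.957 CPM with the FZD5 agonist. It had 2.69, 0.855 and 1.22 CPM with the FZD6 agonist. CHIR libraries 1 to 3 read 7.74, 10.1 and 1.06 CPM, those of 24 h withdrawal 1.17, 0 and 0.995 CPM, and those of 48 h withdrawal 0, 0 and 0.112 CPM. Lgr5 was thus highest in 2 of the 3 CHIR libraries and absent or nearly so after 48 h, where the 3 libraries together held 4 reads, against 24 reads with WNT and 108 with the FZD5 agonist. Every FZD5 and FZD6 agonist library lay above every WNT and 48 h library.

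Lgr4, the R-spondin receptor with the widest expression in adult tissues (chromosome 2, 109917647 to 110014257, plus strand), showed no such order. It had 5.06, 2.45 and 4.08 CPM with WNT, 2.56, 3.86 and 2.82 CPM with the FZD5 agonist and 10.3, 2.90 and 2.44 CPM with the FZD6 agonist. It had 1.20, 3.20 and 7.75 CPM with CHIR, 3.17, 4.19 and 2.49 CPM after 24 h and 2.31, 2.58 and 4.41 CPM after 48 h. The extremes at 10.3, 7.75 and 1.20 CPM belonged to FZD6 agonist 1, CHIR 3 and CHIR 1, which are among the 4 libraries apart. Over the other 14 Lgr4 stayed between 2.31 and 5.06 CPM, and edgeR called Lgr4 in 0 of 15 comparisons, with 18 libraries and with 14. Lgr6, the third receptor (chromosome 1, 134983301 to 135105276, minus strand), had 0 reads in 7 libraries and at most 14 reads, or 0.275 CPM, in any. The fit of 18 libraries left Lgr6 out for low counts, and the 14-library fit kept it and called it in 0 of 15.

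**Figure D3:**
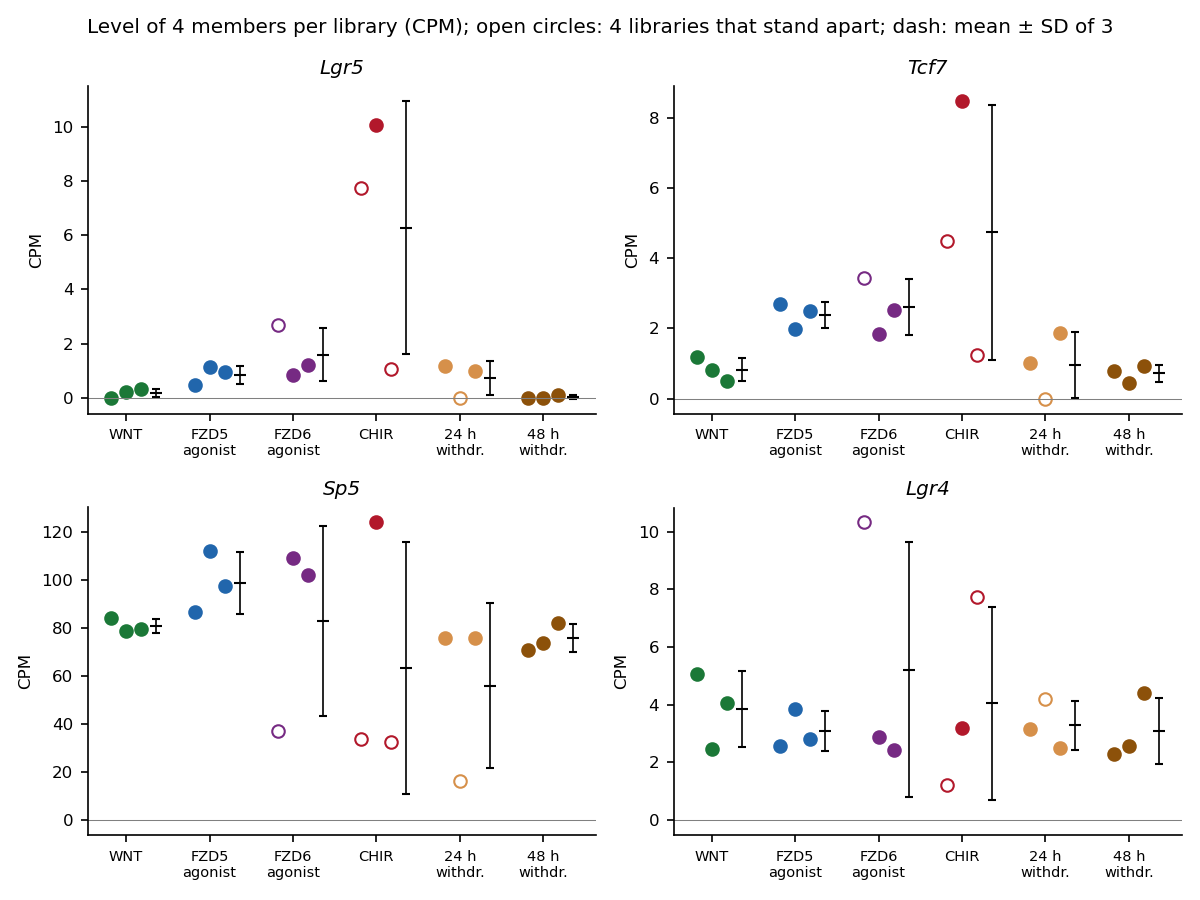
CPM of Lgr5, Tcf7, Sp5 and Lgr4 in each library, 1 panel per gene on its own linear scale, with groups on the horizontal axis, open circles for the 4 libraries apart and a dash for the mean ± SD of 3. Lgr5 and Tcf7 peak in CHIR 2 at 10.1 and 8.49 CPM, and the FZD5 agonist libraries sit above every 48 h library in the panels of Lgr5, Tcf7 and Sp5.

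Of the TCF/LEF factors, Tcf7 varied between groups in the way Lgr5 did, Tcf7l1 was lower with CHIR, and Tcf7l2 stayed within a narrow range. Tcf7, which encodes TCF1, a factor best known from T cells and itself a Wnt target in several tissues (chromosome 11, 52252371 to 52283014, minus strand), had 1.18, 0.805 and 0.501 CPM with WNT. It had 2.70, 1.97 and 2.50 CPM with the FZD5 agonist and 3.44, 1.85 and 2.54 CPM with the FZD6 agonist. CHIR libraries had 4.49, 8.49 and 1.25 CPM, those of 24 h withdrawal 1.0, 0 and 1.88 CPM, and those of 48 h withdrawal 0.802, 0.445 and 0.920 CPM. All 6 libraries of the FZD5 and FZD6 agonists lay above all 3 WNT and all 3 48 h libraries, and CHIR 3, at 1.25 CPM, lay within the range of the 24 h libraries. Of the defining T cell genes, Cd4 had no read in any library and Cd3d at most 0.0547 CPM.

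Tcf7l1, which encodes TCF3, a factor that mostly represses Wnt targets until beta-catenin removes it (chromosome 6, 72626378 to 72789254, minus strand), had 104, 83.3 and 93.3 CPM with WNT and 70.9, 93.5 and 82.2 CPM with the FZD5 agonist. It had 62.4, 85.7 and 86.0 CPM with the FZD6 agonist. The CHIR libraries had 25.2, 53.3 and 73.3 CPM, against 87.3, 53.2 and 80.7 CPM after 24 h and 82.4, 97.1 and 93.1 CPM after 48 h. CHIR 1 was the lowest of all 18, and every WNT and 48 h library lay above every CHIR library. Tcf7l2, which encodes TCF4, the main TCF factor of the intestinal epithelium (chromosome 19, 55741820 to 55933654, plus strand), ranged from 13.7 CPM in FZD6 agonist 1 to 24.0 CPM in CHIR 1. Its group means were 19.1 ± 1.30 CPM with WNT, 18.3 ± 2.69 CPM with the FZD5 agonist, 15.9 ± 1.90 CPM with the FZD6 agonist, 20.1 ± 4.47 CPM with CHIR, 19.3 ± 2.02 CPM after 24 h and 21.6 ± 2.80 CPM after 48 h (SD, n = 3 each), and it passed the test in no comparison over 18 or 14 libraries.

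Lef1, the family member that most often acts as an activator (chromosome 3, 131110471 to 131224356, plus strand), had no read in any of the 9 libraries treated with a ligand. Of the others, CHIR 2 held 19 reads (0.419 CPM), CHIR 1 a single read (0.0274 CPM) and CHIR 3 none. The 3 libraries of 24 h withdrawal together held 3 reads and those of 48 h withdrawal 4. CHIR 2 was the 1 library with more than 3 reads of Lef1. A fold against that library would follow from its choice and is not given. The other CHIR libraries did not share the level of CHIR 2.

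Set side by side per length, Tcf7l1 made up most of the TCF/LEF transcripts in every library. Its share of the summed RPKM of the 4 genes was 89.5% ± 1.06 with WNT, 86.7% ± 3.10 with the FZD5 agonist and 87.1% ± 2.02 with the FZD6 agonist. It was 72.9% ± 15.1 with CHIR, 86.5% ± 2.86 after 24 h and 88.2% ± 0.297 after 48 h (SD, n = 3 each). The wide spread with CHIR came from 58.6% in CHIR 1, 71.5% in CHIR 2 and 88.6% in CHIR 3. Tcf7 took 0.920% ± 0.317 with WNT, 3.02% ± 0.765 with the FZD5 agonist, 3.59% ± 1.69 with the FZD6 agonist and 0.836% ± 0.313 after 48 h, and the share of Tcf7 did not overlap between either FZD agonist and WNT. In CHIR libraries 1 to 3 Tcf7 took 12.2%, 13.4% and 1.77%, so CHIR 3 lay within the range of the groups without CHIR. The ratio of Tcf7l1 to Tcf7l2 ran from 2.01 in CHIR 1 and 4.88 in CHIR 2 to 10.2 in FZD5 agonist 2. Since shares of 1 sum are tied, a fall of Tcf7l1 alone raises the share of the others.

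**Figure D4:**
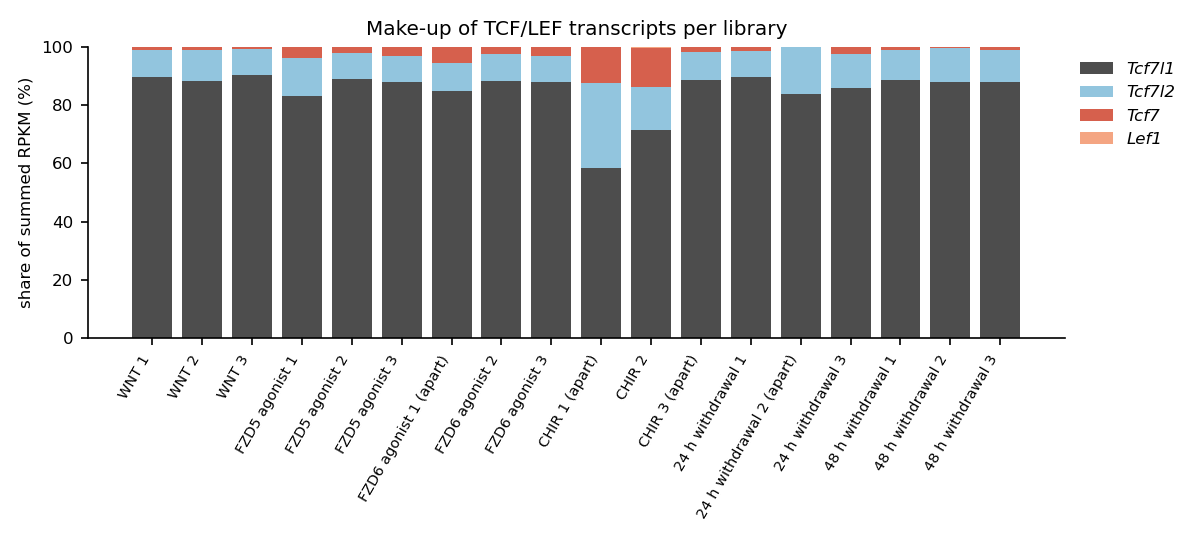
Share of Tcf7l1, Tcf7l2, Tcf7 and Lef1 in their summed RPKM (percent), 1 stacked bar per library. Tcf7l1 fills 58.6% and 71.5% of the bars of CHIR 1 and CHIR 2 and 83.2% to 90.4% of the other 16 libraries, and the share of Tcf7 is widest in those same bars at 12.2% and 13.4%.

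Sp5, a zinc finger factor that competes with Sp1 at Wnt-responsive genes (chromosome 2, 70474923 to 70477729, plus strand), had 84.0, 78.7 and 79.8 CPM with WNT and 86.4, 112 and 97.4 CPM with the FZD5 agonist. It had 37.2, 109 and 102 CPM with the FZD6 agonist. CHIR libraries had 34.0, 124 and 32.4 CPM, those of 24 h withdrawal 75.7, 16.2 and 75.9 CPM, and those of 48 h withdrawal 71.0, 73.9 and 82.2 CPM. The 4 libraries apart held the 4 lowest values. The highest value of all was in CHIR 2.

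Of the co-activators, Bcl9l had its lowest mean with CHIR, and Bcl9 had its lowest means with CHIR and the FZD6 agonist. Bcl9, which links beta-catenin to the Pygopus proteins (chromosome 3, 97203662 to 97297917, minus strand), had 6.67, 6.77 and 8.13 CPM with WNT, 8.13, 7.01 and 6.57 CPM with the FZD5 agonist and 5.82, 5.04 and 5.12 CPM with the FZD6 agonist. It had 3.72, 5.69 and 3.85 CPM with CHIR, 8.10, 26.9 and 7.15 CPM after 24 h and 7.82, 8.19 and 6.58 CPM after 48 h. The value of 26.9 CPM belonged to 24 h withdrawal 2, the library in which 31.3% of reads lay outside genes, against 11.7% to 15.5% in the other 17. All 3 FZD6 agonist libraries were below every WNT, FZD5 agonist and withdrawal library, and above 2 of the 3 CHIR libraries. Bcl9l, its close relative (chromosome 9, 44482825 to 44511896, plus strand), had 30.5, 33.3 and 34.7 CPM with WNT, 28.2, 41.0 and 28.1 CPM with the FZD5 agonist and 12.1, 30.5 and 25.9 CPM with the FZD6 agonist. CHIR libraries had 9.49, 21.6 and 10.2 CPM, against 31.6, 28.4 and 33.6 CPM after 24 h and 32.7, 25.7 and 31.8 CPM after 48 h. Every withdrawal, WNT and FZD5 agonist library lay above every CHIR library for Bcl9l.

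The comparison of withdrawal with CHIR asks what the loss of the Wnt agonist does to these genes. After 48 h the log2 fold change of Lgr5 over all 18 libraries was -7.31 (SE 1.58, edgeR quasi-likelihood adjusted p = 0.0241). It was the single member called of 8 tested, where 2.59% of all 16497 genes tested were called. The fitted change rests on 4 reads in the 48 h group, and the mean was 0.0372 ± 0.0644 CPM after 48 h against 6.28 ± 4.67 CPM with CHIR (SD, n = 3 each). The call was lost without 48 h withdrawal 1, 2 or 3 (edgeR adjusted p = 0.138, 0.123 and 0.0742) and without CHIR 1 (adjusted p = 0.0630), while the direction stayed. Tcf7 had a log2 fold change of -2.71 (SE 0.927, edgeR adjusted p = 0.141), Bcl9l of 1.13 (SE 0.337, adjusted p = 0.0909) and Tcf7l1 of 0.84 (SE 0.302, adjusted p = 0.162). DESeq2 called Lgr5, Tcf7 (-2.70, adjusted p = 0.0185) and Bcl9l (1.14, adjusted p = 0.0217), with 7.73% of genes called. After 24 h edgeR called no member over 18 libraries and no gene at all (0%), although 4 of the 8 members and 2809 genes had an unadjusted p under 0.05. DESeq2 called Bcl9 (1.68, adjusted p = 0.00990) and Bcl9l (1.19, adjusted p = 0.0410) higher, with 2.93% of genes called, and the value of Bcl9 includes 24 h withdrawal 2.

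Against CHIR 2 alone, over 14 libraries, the same 4 members were called at both times. After 24 h the log2 fold change was -3.20 for Lgr5 (SE 0.690, edgeR adjusted p = 0.0227), -2.54 for Tcf7 (SE 0.421, adjusted p = 0.00363) and -0.70 for Sp5 (SE 0.122, adjusted p = 0.0052), while Tcf7l1 rose by 0.67 (SE 0.154, adjusted p = 0.0241). These are 3 lower and 1 higher of 10 members tested, where 4.5% of all genes were called. After 48 h it was -7.98 for Lgr5 (SE 0.854, edgeR adjusted p = 1.90e-05), -3.52 for Tcf7 (SE 0.389, adjusted p = 8.70e-06) and -0.69 for Sp5 (SE 0.113, adjusted p = 0.000295), and Tcf7l1 rose by 0.79 (SE 0.148, adjusted p = 0.000866). At this time 27.5% of all genes were called. Leaving out 48 h withdrawal 3, and with it all 4 reads of the 48 h group, turned the Lgr5 value into -11.67, set against no reads. Both sets of values have CHIR 2 in common, and their p-values take their spread from the other groups. CHIR 1 lay above every withdrawal library for Lgr5 and Tcf7 and below every one for Tcf7l1, and CHIR 3 lay within the range of the 24 h libraries for all 3 genes. Sp5, at 34.0 and 32.4 CPM in CHIR 1 and CHIR 3, was lower there than in all withdrawal libraries but 24 h withdrawal 2. Over 18 libraries the log2 fold change of Sp5 at 48 h was 0.25 (SE 0.552, edgeR adjusted p = 0.879). Leaving out 1 further library of the 14, the 24 h calls of Lgr5 were lost without 24 h withdrawal 1 or 3 and that of Tcf7l1 without 24 h withdrawal 1 (highest edgeR adjusted p = 0.12 over these omissions for Lgr5).

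Between 24 h and 48 h of withdrawal Lgr5 alone was called over the 14 libraries, at a log2 fold change of -4.78 (SE 0.921, edgeR adjusted p = 0.00334). That is 1 of 10 members, where 18% of all genes were called. The value ran from -8.47 without 48 h withdrawal 3, which held the 4 reads of its group, to -4.16 without 48 h withdrawal 1. Tcf7 had a log2 fold change of -0.98 (SE 0.375, edgeR adjusted p = 0.0851), and Sp5 was at 75.7 ± 5.81 CPM after 48 h (n = 3) and 75.8 ± 0.131 CPM after 24 h (n = 2, SD). Over 18 libraries edgeR called none of 8 members (2 with an unadjusted p under 0.05) and 0.0485% of genes, and DESeq2 called Lgr5 (-4.28, adjusted p = 0.0471; 3.53% of genes).

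The comparison of the ligands with 48 h withdrawal sets cells given a Wnt or Frizzled ligand beside cells left without any. Their times without CHIR may differ, as the labels do not give them for the ligand groups. With the FZD5 agonist Lgr5, Tcf7 and Sp5 rose above 48 h withdrawal, with the FZD6 agonist these 3 rose and Bcl9 fell, and with WNT no member was called. The FZD5 agonist can be set against 48 h withdrawal without any of the 4 libraries apart, in a fit of those 2 groups alone. In that fit, on the log2 scale, Lgr5 rose by 4.45 (SE 0.808, edgeR adjusted p = 0.00796), Tcf7 by 1.70 (SE 0.294, adjusted p = 0.00632) and Sp5 by 0.37 (SE 0.101, adjusted p = 0.0384), which are 3 higher and 0 lower of 8 members tested, where 13% of genes were called. Over the 14 libraries the same 3 were called, with Lgr5 at 4.48 (SE 0.889, edgeR adjusted p = 0.00437), Tcf7 at 1.72 (SE 0.332, adjusted p = 0.00246) and Sp5 at 0.39 (SE 0.0835, adjusted p = 0.00459). Of all genes 15.7% were called there, and each of these calls held in all 14 omissions of a further library. The size for Lgr5 was not as stable: it was 3.86 without 48 h withdrawal 1, and 8.17 without 48 h withdrawal 3, which held all 4 reads of its group, so that value is set against a group at 0 and measures no fold. Mean levels were 0.861 ± 0.332 CPM of Lgr5 with the FZD5 agonist against 0.0372 ± 0.0644 CPM after 48 h, 2.39 ± 0.376 against 0.722 ± 0.247 CPM of Tcf7, and 98.6 ± 12.8 against 75.7 ± 5.81 CPM of Sp5 (SD, n = 3 each). In all 18 libraries edgeR called none of the 8 members (1 with an unadjusted p under 0.05) and no gene (0%). DESeq2 likewise called no member, with 0.206% of genes called.

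For the FZD6 agonist, 2 libraries remain over the 14. Against 48 h withdrawal Lgr5 rose by 4.74 (SE 0.917, edgeR adjusted p = 0.00444), Tcf7 by 1.60 (SE 0.359, adjusted p = 0.00808) and Sp5 by 0.49 (SE 0.0923, adjusted p = 0.00245), and Bcl9 fell by 0.56 (SE 0.159, adjusted p = 0.0306). These are 3 higher and 1 lower of 10 members, where 12.1% of genes were called. The Lgr5 value likewise became 4.12 without 48 h withdrawal 1 and 8.43 without 48 h withdrawal 3. The call of Tcf7 was lost without FZD6 agonist 3 (edgeR adjusted p = 0.106) and that of Sp5 without FZD6 agonist 2 (adjusted p = 0.0526). That of Bcl9 held in 10 of 14 omissions (highest edgeR adjusted p = 0.18). FZD6 agonist 1, left out here, had the highest Lgr5 and Tcf7 of its group, at 2.69 and 3.44 CPM, and the lowest Sp5, at 37.2 CPM. With it, over 18 libraries, edgeR called none of the 8 members (1 with an unadjusted p under 0.05) and 0.0121% of genes, and DESeq2 called Lgr5 (5.41, adjusted p = 0.0220; 0.394% of genes). WNT against 48 h withdrawal gave no called member and no called gene in the fits of 18 libraries (0%), of 14 libraries (0%) and by DESeq2, and 1344 of 17433 genes had an unadjusted p under 0.05 over the 14. Lgr5 had a log2 fold change of 2.21 (SE 1.11, edgeR adjusted p = 0.668) from 24 reads with WNT against 4 after 48 h, and Tcf7 one of 0.20 (SE 0.353, adjusted p = 0.904).

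Against 24 h withdrawal Sp5 was the member that rose with the FZD agonists, and Lgr5 fell with WNT. Over the 14 libraries Sp5 rose with the FZD5 agonist by 0.40 (SE 0.0942, edgeR adjusted p = 0.0272) and with the FZD6 agonist by 0.49 (SE 0.102, adjusted p = 0.0407). Each is 1 of 10 members, where 4.23% and 0.677% of genes were called for the FZD5 and FZD6 agonists. Lgr5 had log2 fold changes of -0.30 (SE 0.594) with the FZD5 agonist and -0.04 (SE 0.642) with the FZD6 agonist, and Tcf7 of 0.74 (SE 0.351) and 0.62 (SE 0.379), none of them called by edgeR. With WNT Lgr5 fell by 2.56 on this scale (SE 0.689, edgeR adjusted p = 0.0271), the single call of 10 members, where 13.6% of genes were called. These calls rest on 2 libraries of 24 h withdrawal: those of Lgr5 with WNT and of Sp5 with the FZD5 agonist were lost without either of them (highest edgeR adjusted p = 0.121 and 0.182), and that of Sp5 with the FZD6 agonist held in 4 of 14 omissions (highest 0.34). The Lgr5 call with WNT was also lost without WNT 2 and the Sp5 call with the FZD5 agonist without FZD5 agonist 2. Over 18 libraries edgeR called none of 8 members in any of these comparisons, with 0.0303%, 0.00606% and 0% of genes called for WNT, the FZD5 agonist and the FZD6 agonist and 1 member with an unadjusted p under 0.05 in each. DESeq2 called Bcl9 lower with the FZD6 agonist (-1.40, adjusted p = 0.0458; 1.25% of genes), a value that includes the 26.9 CPM of 24 h withdrawal 2.

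The comparison of the ligands with CHIR asks how far each replacement kept these genes at the level of the small molecule. Over the 14 libraries, where CHIR is CHIR 2, Lgr5 fell with all 3 ligands, with log2 fold changes of -5.76 with WNT (SE 0.690, edgeR adjusted p = 5.50e-05), -3.50 with the FZD5 agonist (SE 0.612, adjusted p = 0.00255) and -3.24 with the FZD6 agonist (SE 0.686, adjusted p = 0.0114). Tcf7 had log2 fold changes of -3.32 (SE 0.381, edgeR adjusted p = 1.57e-05), -1.80 (SE 0.373, adjusted p = 0.00472) and -1.92 (SE 0.410, adjusted p = 0.00859) with WNT, the FZD5 agonist and the FZD6 agonist. Tcf7l1 rose by 0.85 (SE 0.148), 0.66 (SE 0.146) and 0.72 (SE 0.154) in the same order, with edgeR adjusted p = 0.000559, 0.00770 and 0.00898. Sp5 fell with WNT by 0.58 (SE 0.114, edgeR adjusted p = 0.00135), and had differences of -0.30 (SE 0.115, adjusted p = 0.109) and -0.20 (SE 0.123, adjusted p = 0.370) with the FZD5 and FZD6 agonists. Bcl9l rose with WNT by 0.64 (SE 0.20, edgeR adjusted p = 0.0273), a call lost without WNT 2 or WNT 3 (highest adjusted p = 0.0629). Lef1, left out of the fit of 18 libraries for low counts, passed the 14-library filter only through CHIR 2. That was the 1 library with more than 3 reads of it. Its lower calls with WNT and the FZD5 agonist against that same library were thus set by the filter and are no result. Of all genes 26.6%, 13.6% and 8.48% were called in these 3 comparisons. The call of Lef1 with the FZD5 agonist was lost without any 1 of the FZD5 agonist libraries or 48 h withdrawal 3 (highest edgeR adjusted p = 0.065). With the FZD6 agonist, the call of Lgr5 was lost without FZD6 agonist 2 or 3 (highest edgeR adjusted p = 0.104) and that of Tcf7 without FZD6 agonist 2 (adjusted p = 0.0849). Over all 18 libraries edgeR called none of 8 members with WNT (1.92% of genes), the FZD5 agonist (0.00606%) or the FZD6 agonist (0.00606%), and 4, 3 and 1 members had an unadjusted p under 0.05. DESeq2 called Bcl9l higher with WNT (1.27, adjusted p = 0.00944; 6.61% of genes) and with the FZD5 agonist (1.25, adjusted p = 0.0163; 4.02% of genes). With WNT DESeq2 also called Lgr5 (-5.14, adjusted p = 0.000950) and Tcf7 (-2.50, adjusted p = 0.0371) lower. For the FZD6 agonist DESeq2 called no member and 0.418% of genes.

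**Figure D5:**
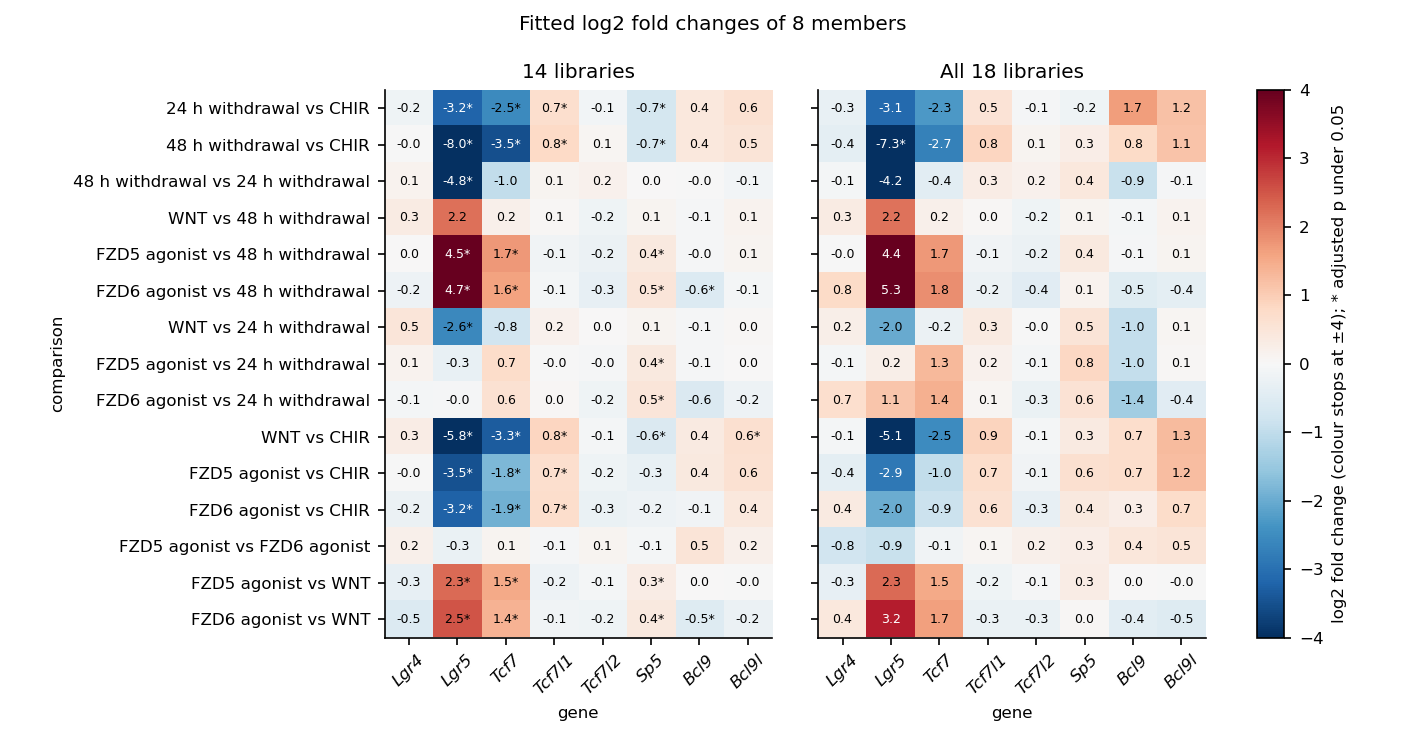
Fitted log2 fold changes of 8 members (columns) in 15 comparisons (rows), on the left over the 14 libraries and on the right over all 18, with an asterisk where the edgeR adjusted p is under 0.05. On the left Lgr5, Tcf7 and Sp5 carry asterisks in the rows of the FZD5 and FZD6 agonists against 48 h withdrawal and against WNT, and on the right the single asterisk is Lgr5 at 48 h withdrawal against CHIR.

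The comparison among the ligands asks whether they differ from each other. Over the 14 libraries Lgr5, Tcf7 and Sp5 were higher with the FZD5 and FZD6 agonists than with WNT, and no member told the agonists apart. The labels do not give the time each ligand group spent without CHIR, so ligand and that time cannot be told apart. Mean Lgr5 was 0.861 CPM with the FZD5 agonist and 1.04 CPM with the FZD6 agonist, beside 1.08 CPM after 24 h. It was 0.175 CPM with WNT, beside 0.0372 CPM after 48 h. The part of that time in these differences was not tested. With the FZD5 agonist against WNT over the 14 libraries, Lgr5 rose by 2.27 (SE 0.647, edgeR adjusted p = 0.0301), Tcf7 by 1.52 (SE 0.321, adjusted p = 0.00421) and Sp5 by 0.28 (SE 0.0832, adjusted p = 0.0290), 3 of 10 members, where 16.7% of genes were called. Neither group holds a library that stood apart, and in a fit of those 2 groups alone Tcf7 was called (1.52, SE 0.311, edgeR adjusted p = 0.0135; 13.1% of genes called), 1 of 9 members tested. There Lgr5 (2.26, edgeR adjusted p = 0.0696) and Sp5 (0.28, adjusted p = 0.0776) were not called. Means were 2.39 ± 0.376 CPM of Tcf7 with the FZD5 agonist against 0.827 ± 0.338 CPM with WNT, 0.861 ± 0.332 against 0.175 ± 0.159 CPM of Lgr5 and 98.6 ± 12.8 against 80.8 ± 2.80 CPM of Sp5 (SD, n = 3 each). With the FZD6 agonist against WNT, Lgr5 rose by 2.52 (SE 0.684, edgeR adjusted p = 0.0303), Tcf7 by 1.40 (SE 0.349, adjusted p = 0.0159) and Sp5 by 0.38 (SE 0.0922, adjusted p = 0.0145). Bcl9 fell by 0.51 (SE 0.158, edgeR adjusted p = 0.0480), so 3 were higher and 1 lower of 10 members, where 11.8% of genes were called. Of these, only the Tcf7 call with the FZD5 agonist held in each omission of a further library. The other calls were lost without 1 or more of the libraries of the groups compared, that of Bcl9 in 11 of 14 omissions. Over 18 libraries edgeR called none of 8 members and no gene (0%) in either comparison, with 0 and 1 members at an unadjusted p under 0.05 for the FZD5 and FZD6 agonists, and DESeq2 called no member (0.206% and 0.364% of genes).

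Between the FZD5 and the FZD6 agonist no member was called over 18 libraries (0% of genes), over 14 libraries (0.00574%) or by DESeq2 (0%). Over the 14 libraries 533 of 17433 genes had an unadjusted p under 0.05, Bcl9 among them with 7.24 ± 0.807 CPM with the FZD5 agonist (n = 3) against 5.08 ± 0.0594 CPM with the FZD6 agonist (n = 2, SD). Its log2 fold change was 0.51 (SE 0.158, edgeR adjusted p = 1). Those of Lgr5, Tcf7 and Sp5 were -0.26 (SE 0.588), 0.12 (SE 0.334) and -0.09 (SE 0.0926). Taking 2 SE either side, the difference ran from -1.43 to 0.92 for Lgr5, from -0.55 to 0.79 for Tcf7 and from -0.28 to 0.09 for Sp5. A missed threshold does not show that the agonists act alike. The comparisons among ligands share groups, so their values for Lgr5, Tcf7 and Sp5 are given side by side and are not independent of each other.

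The summed level of 5 cycling markers (Mki67, Top2a, Ccnb1, Cdk1 and Birc5) was, like Lgr5 and Tcf7, higher in CHIR 2 and with the FZD agonists than with WNT and after 48 h over the 14 libraries. Over the 14 libraries it was 247 to 298 CPM with WNT, 447 to 575 CPM with the FZD5 agonist and 494 to 573 CPM with the FZD6 agonist. It was 715 CPM in CHIR 2, 440 to 523 CPM after 24 h and 194 to 248 CPM after 48 h. Among the libraries apart CHIR 1 stood at 865 CPM, CHIR 3 at 86.8 CPM, FZD6 agonist 1 at 159 CPM and 24 h withdrawal 2 at 65.3 CPM. FZD6 agonist 1, with the lowest cycling sum of its group, had the highest Lgr5 and Tcf7 of that group, at 2.69 and 3.44 CPM. CHIR 3 and 24 h withdrawal 2, also with the lowest cycling sums of their groups, went the other way. CHIR 3 had the lowest Lgr5 and Tcf7 of its group, at 1.06 and 1.25 CPM, and 24 h withdrawal 2 had 0 CPM of both. Sp5 had means of 75.7 CPM after 48 h and 75.8 CPM after 24 h over the 14 libraries, and 34.0 CPM in CHIR 1, a library apart. The sum of 8 airway secretory markers, most of it Cyp2f2, went the opposite way to the cycling sum over the 14 libraries. There it had 496 to 551 CPM with WNT, 141 to 355 CPM with the FZD5 agonist and 154 to 212 CPM with the FZD6 agonist. It was 47.0 CPM in CHIR 2, 125 to 153 CPM after 24 h and 525 to 658 CPM after 48 h. The 4 libraries apart had 46.5 CPM (CHIR 1), 890 CPM (CHIR 3), 1030 CPM (FZD6 agonist 1) and 675 CPM (24 h withdrawal 2). In the last 3 of these, Scgb1a1 had 38.6 to 79.8 CPM, Scgb3a1 at least 16.3 CPM, Bpifa1 42.0 to 116 CPM and Reg3g 26.5 to 208 CPM. In the other 15 libraries Scgb1a1 had at most 0.947 CPM, Scgb3a1 at most 1.13 CPM, Bpifa1 at most 0.246 CPM and Reg3g 0.

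Alveolar type 1 markers also moved with the groups compared. Their sum was 8794 to 9290.05 CPM with WNT, 7155 to 9600.4 CPM with the FZD5 agonist and 7853 to 8422 CPM with the FZD6 agonist, with 8422 CPM in FZD6 agonist 1. It was 4224 to 8062 CPM with CHIR, with 8062 CPM in CHIR 3, and 9181 to 10235 CPM after 48 h. After 24 h it was 6735 to 7470 CPM over the 14 libraries and 9851 CPM in 24 h withdrawal 2. Relative to CHIR 2, over the 14 libraries, the median log2 fold change of the 9 was 2.11 with WNT and 2.21 with the FZD5 agonist. It was 1.98 with the FZD6 agonist, 1.38 after 24 h and 2.09 after 48 h. Over the same libraries 5 of the 9 were called higher after 48 h than after 24 h (median 1.10), where 18% of all genes were called. With WNT 5 were called higher than after 24 h (median 0.74), where 13.6% of all genes were called. Against 48 h withdrawal the FZD5 agonist had 1 higher and 1 lower, where 15.7% of all genes were called. The FZD6 agonist (12.1% of all genes) and WNT (0%) had none called. Over 18 libraries 3 were called higher after 48 h (2.59% of all genes called) and 2 with WNT (1.92%), both relative to CHIR. The part of the cycling, airway and alveolar type 1 lists in the results for Lgr5, Tcf7, Sp5 and Tcf7l1 was not tested. Of the 9 markers of T and other blood cells, the macrophage and lysosome gene Cd68 made up nearly all of the 0.0705 to 13.6 CPM, and Cd4 and Adgre1 had no read in any library.

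Other parts of the R-spondin arm were measured beside its receptors. Of 8 genes for R-spondins, the ubiquitin ligases Rnf43 and Znrf3 and the co-receptors Lrp5 and Lrp6, 4 passed the filter. Rspo1 to Rspo4, the ligands of the LGR proteins, did not, with Rspo3 and Rspo4 at 0 in every library and at most 0.282 CPM of the other R-spondin genes. Over the 14 libraries Rnf43 rose with the FZD5 agonist by 0.56 (SE 0.0851, edgeR adjusted p = 0.000395), Lrp5 by 0.73 (SE 0.167, adjusted p = 0.00861) and Znrf3 by 0.71 (SE 0.213, adjusted p = 0.0374) relative to 48 h withdrawal. That is 3 higher and 0 lower of 4, where 15.7% of all genes were called, with a median log2 fold change of 0.64, beside 0.02 over all genes tested. With the FZD6 agonist Rnf43 rose by 0.47 and Lrp5 by 0.72 (2 higher, 0 lower, where 12.1% of all genes were called, median 0.56, edgeR adjusted p = 0.00382 and 0.0195), and with WNT none of the 4 was called (median -0.04). Relative to CHIR 2, 48 h withdrawal had 0 higher and 3 lower (Rnf43 -0.80, Lrp5 -0.83 and Znrf3 -1.01, median -0.82), where 27.5% of all genes were called. Over 18 libraries none of the 4 was called by edgeR in any of these comparisons.

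Canonical Wnt targets outside the members moved in both directions. Of 17 listed, 15 were tested over the 14 libraries. With the FZD5 agonist against 48 h withdrawal 5 were higher and 2 lower (median 0.50, beside 0.02 over all genes), where 15.7% of all genes were called. Axin2, a feedback inhibitor, rose by 3.01 (SE 0.373, edgeR adjusted p = 8.84e-05) and Sox9, a factor of lung progenitors, by 3.69 (SE 0.504, adjusted p = 0.000321), while Bambi, a decoy receptor for BMP and TGF beta ligands, fell by 0.97 (SE 0.102, adjusted p = 1.69e-05). For the FZD6 agonist, with 12.1% of all genes called, 4 were higher and 2 lower (median 0.03), among them Axin2 at 2.49, Sox9 at 4.27 and Bambi at -0.90. With WNT none was called (median -0.00). Axin2 had 4.94, 2.88 and 2.95 CPM with the FZD5 agonist, 1.09, 2.90 and 2.12 CPM with the FZD6 agonist and 0.384, 0.373 and 0.238 CPM with WNT, against 0.413, 0.771 and 0.167 CPM after 48 h. Its order across ligands was thus that of Lgr5 and Tcf7 for the FZD agonists over WNT. Over 18 libraries 13 were tested. There edgeR called Nkd1 (2.95) and Bambi (1.13) higher and Sox9 (-3.52) lower after 48 h than with CHIR, where 2.59% of all genes were called. With WNT it called Nkd1 (3.37) and Bambi (1.10) higher than with CHIR, where 1.92% of all genes were called.

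Of 22 nuclear partners of beta-catenin and TCF, all of which were tested, none was called over 18 libraries in any of the 15 comparisons. Over the 14, 48 h withdrawal had 5 higher and 2 lower than CHIR 2 (median 0.14, beside 0.01 over all genes). With 27.5% of all genes called in that comparison, 7 of 22 is near the background and is no result about the partners as a group. Tle2 and Tle3, Groucho co-repressors that hold TCF factors in the repressed state, rose by 1.17 (SE 0.124) and 0.97 (SE 0.118), and Ctnnb1, which encodes beta-catenin, by 0.70 (SE 0.102), with edgeR adjusted p = 6.53e-06, 1.98e-05 and 0.000105. Against 48 h withdrawal, the FZD5 agonist had 1 higher and 3 lower (median -0.03), near the background of 15.7% of all genes called. Tle2 fell by 0.61 (SE 0.0821, edgeR adjusted p = 0.000144), Tle5 by 0.31 (SE 0.0707, adjusted p = 0.00787) and Ctnnb1 by 0.26 (SE 0.0691, adjusted p = 0.0162). For the FZD6 agonist, where 12.1% of all genes were called, 0 were higher and 4 lower (median -0.11), among them Tle2 (-0.39), Ctnnb1 (-0.31) and Tle3 (-0.32), and with WNT none was called (median -0.04). Tle2 had 50.8, 49.9 and 44.9 CPM with the FZD5 agonist against 70.1, 73.3 and 80.6 CPM after 48 h, with no overlap.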

How the data were processed

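RNA from 18 mouse libraries was sequenced after a TruSeq Stranded Total RNA preparation, per the labels' protocols. The deposited files give, per the file headers, whole-number counts of reads per gene and the authors' RPKM. Reads were aligned with GSNAP to GRCm38, per the submitters' processing notes; the aligner version, counter, annotation and strand setting were not given in the sources used here, so reads of overlapping and antisense genes cannot be told apart. Of 52636 identifiers 52489 (99.72%) matched a GENCODE M21 symbol, and the file's Aes is called Tle5.

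Counts were analysed with edgeR 4.0.16 (R 4.3.3): TMM scaling, removal of genes low in all groups, 1 robust quasi-likelihood fit of all 6 groups, and Benjamini-Hochberg adjustment over all genes, with a call at an adjusted p under 0.05. The fit kept 16497 genes over 18 libraries (36139 removed) and 17433 over 14. A fit on simulated counts with known changes was checked. A fold change is that of the group named over the group it is set against. Alternatives were DESeq2 1.42.0, other scaling and filters, the groups compared alone, a block, and leaving out libraries; leaving out further libraries of the 14, and the core motif, were added after seeing the data. CPM use TMM-scaled sizes. Named were all members, up to 3 called genes of smallest p per pathway list and comparison, and for Lgr4, Lgr5, Tcf7, Tcf7l2 and Sp5 the 3 genes of highest Pearson r over the 14 libraries (average log2 CPM of at least 2, prior count 2). The members and lists were chosen with earlier results of these data known. A comparison of TCF/LEF protein sequences was not made.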

Additional observations from a re-analysis of the deposited data

Results flagged for a closer look

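Differences between ligand groups were tested directly over the 14 libraries, and 7 passed the test. With the FZD5 agonist relative to WNT the log2 fold changes were 2.27 for Lgr5, 1.52 for Tcf7 and 0.28 for Sp5. With the FZD6 agonist relative to WNT they were 2.52 for Lgr5, 1.4 for Tcf7, 0.38 for Sp5 and -0.51 for Bcl9. Of all genes 16.7% were called for the FZD5 agonist and 11.8% for the FZD6 agonist against WNT. Over 18 libraries edgeR called no member in either comparison. Only the Tcf7 call with the FZD5 agonist held in each omission of a further library. No member of any group was singled out for 1 library far from the others, since groups of 3 libraries are too small for that test.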

How the results depend on the processing

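Over 18 libraries edgeR called 1 member in 48 h withdrawal against CHIR and 0 in the other 14 comparisons, and RLE scaling, no filter and a 1 CPM filter (3 or more libraries) left these counts as they were. Without the 4 libraries the counts were 4 (24 h against CHIR), 4 (48 h against CHIR), 1 (48 h against 24 h), 3 and 4 (FZD5 and FZD6 agonist against 48 h), 1 each (WNT, FZD5 and FZD6 agonist against 24 h), 6, 4 and 3 (WNT, FZD5 and FZD6 agonist against CHIR) and 3 and 4 (FZD5 and FZD6 agonist against WNT). DESeq2 gave 2 (24 h against CHIR), 3 (48 h against CHIR), 1 (48 h against 24 h), 1 (FZD6 agonist against 48 h), 1 (FZD6 agonist against 24 h), 3 (WNT against CHIR) and 1 (FZD5 agonist against CHIR). Fits of only the groups compared gave 3 (FZD5 agonist against 48 h), 1 (FZD5 agonist against WNT) and 0 (48 h against CHIR). The 14-library counts for WNT and the FZD5 agonist against CHIR include Lef1, which passed the filter only through CHIR 2. The causes were not tested. Beside these counts, 2.59% of all genes were called for 48 h against CHIR over 18 libraries. Without the 4 libraries the share was 0.677% to 18% where members were called and CHIR was not compared, and with CHIR it is given above. For the DESeq2 counts listed it was 0.394% to 7.73%. The fits of only the groups compared had 13%, 13.1% and 0.851% in the order given.

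The counts in this paragraph have no share of all genes beside them. They show only how the calls depend on single libraries and are no result about the members. Leaving out 1 library at a time from the 18 gave 0 to 4 members for 48 h against CHIR and for WNT against CHIR, 0 to 2 for the FZD5 agonist against CHIR, 0 to 1 for the FZD6 agonist against 24 h and 0 in the other 11 comparisons. From the 14 it gave 2 to 5 (24 h against CHIR), 4 to 5 (48 h against CHIR), 1 in each (48 h against 24 h), 3 in each (FZD5 agonist against 48 h), 2 to 4 (FZD6 agonist against 48 h), 0 to 1 (each ligand against 24 h), 5 to 6 (WNT against CHIR), 3 to 5 (FZD5 agonist against CHIR), 1 to 3 (FZD6 agonist against CHIR), 1 to 3 (FZD5 agonist against WNT), 0 to 4 (FZD6 agonist against WNT) and 0 in WNT against 48 h and between the FZD agonists.

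Between 18 and 14 libraries the sign differed in 9 of 15 comparisons for Lgr4, 5 for Sp5, 2 each for Lgr5 and Tcf7l1, and 1 each for Bcl9, Tcf7 and Tcf7l2, and of these only values of Sp5 were called in either. The log2 fold change of Sp5 for 24 h against CHIR became 0.26 without 24 h withdrawal 2 and, over omissions of 1 library, ran from -0.50 (without CHIR 3) to 0.75 (without CHIR 2). For 48 h against CHIR it became -0.69 without the 4 libraries (-0.75 to -0.64 with 1 more left out, -0.67 without 48 h withdrawal 2), -0.047 without CHIR 1, -0.049 without CHIR 3, and 1.20 without CHIR 2, and for WNT against CHIR -0.58 without the 4 libraries (-0.61 to -0.56 with 1 more left out, -0.57 without WNT 3 and -0.59 without FZD6 agonist 3). For the FZD6 agonist against 48 h it became -0.12 and -0.05, and against WNT -0.21 and -0.14, without FZD6 agonist 2 and 3, and 0.48 and 0.38 against 48 h and WNT without FZD6 agonist 1.

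With the replicate block, 48 h against CHIR had 0 called members, since Lgr5 had an edgeR adjusted p = 0.0546, and Sp5 for the FZD6 agonist against WNT became -0.035. No pairing by number was seen: same-numbered libraries deviated from their group means with a median correlation of -0.0226 over 45 pairs, against 0.0150 over 90 pairs of different numbers. The check includes the libraries apart, and r ran from -0.521 to 0.466 for same numbers. It cannot decide whether same-numbered libraries share a culture or mouse. Depth limits Lgr6 and Lef1, which stayed near the floor of 3 counts.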

Other observations

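For 5 members, those genes whose log2 CPM had the highest Pearson correlation over the 14 libraries are given, as a description over libraries that share groups. Lgr5 was followed by Naa50 (r = 0.975 over 14 libraries and 0.826 over 18), Me2 (0.963 and 0.916) and Pwp2 (0.954 and 0.498). Tcf7 was followed by Srsf1 (0.952 and -0.204), Fchsd2 (0.936 and 0.680) and Gemin6 (0.930 and 0.783). Sp5 was followed by Slfn9 (0.919 and 0.795), Rhbdf2 (0.915 and 0.361) and Skp2 (0.909 and 0.310). Lgr4 was followed by Ddx50 (0.807 and 0.672), Epn1 (0.764 and 0.757) and Sox12 (0.754 and 0.505). Tcf7l2 was followed by Bmp1 (0.872 and 0.125), Vps35l (0.863 and 0.0162) and Znrf1 (0.844 and -0.0932). For Tcf7l2, and for Srsf1 with Tcf7, the likeness did not carry over to all 18 libraries. It was also much weaker there for Pwp2 with Lgr5 (0.498) and for Rhbdf2 and Skp2 with Sp5 (0.361 and 0.310).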
